A study of Mus musculus with 4 samples.

Results

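Mitochondrial ribosomal proteins build the ribosome inside mitochondria. In lung fibroblasts given CXC chemokines, 32 of their genes were measured here. They are the rows of the deposited table whose gene name begins with Mrpl (large subunit, 21 genes) or Mrps (small subunit, 11 genes) followed by a digit, out of 2979 genes in the table. GENCODE M21 annotates 49 protein-coding Mrpl and 29 protein-coding Mrps genes, and those outside the table were not analysed here. Lung fibroblasts, the matrix-producing cells of lung connective tissue, came fresh from wild-type BALB/c mice of 4 weeks and were sequenced as 4 RNA libraries. In the chemokine group (n = 2 libraries) the cells received recombinant human CXCL1 (8 nM), CXCL2 (2 nM) and CXCL8 (20 nM) for 3 hours, and in the control group (n = 2 libraries) they are labelled control. The labels name no separate cultures or animals behind the replicates, so the p-values measure the spread between these libraries, which may be technical.

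The mitochondrial ribosome translates the few proteins that mitochondrial DNA still encodes, all of them subunits of the respiratory chain and ATP synthase. Its RNA comes from mitochondrial DNA, whereas every one of its proteins is encoded in the nucleus, made in the cytosol and imported. Many of these proteins have a counterpart in the bacterial ribosome, and others are found only in mitochondria. The large subunit joins amino acids and the small subunit reads the messenger RNA. The series asks how the added chemokines, which signal through the receptor CXCR2 in mouse cells, affect lung fibroblasts.

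All 32 genes were higher in the chemokine libraries, by small amounts. Limma's log2 fold changes on log2(RPKM + 1) ran from 0.21 for Mrpl15 to 0.50 for Mrps12 around a median of 0.35, with SEs of 0.05 to 0.07 (n = 2 per group) and adjusted p-values from 0.000212 to 0.0035. RPKM is a read number scaled to gene length and to the reads of the library. The authors' deposited table gave the same genes folds of 1.19 to 1.44, ranks 59 to 1046 of its 2979 genes. In all 32 both chemokine libraries lay above both controls. That table holds only genes whose control and chemokine values do not overlap, 100% of 2979, and 42.4% lie higher in the chemokine libraries. Of the 2956 tested genes 100% passed limma's threshold, so neither the absence of overlap nor the call separates these genes from the rest. The variance and the adjustment were also estimated over these non-overlapping genes alone. The SEs and p-values given here may therefore be too small, and they are no independent support for a change. The direction does vary over the table. Of tested genes 42.8% were called higher, and the median log2 fold change over all tested genes was -0.23. In bulk RNA, fewer or more cells of a type and less or more RNA per cell cannot be told apart. By the annotation the 32 genes lie on 15 chromosomes, with at most 5 on any of them (chromosome 17).

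Gene length moved with this direction throughout the table. Of 4 equal classes of tested genes by summed exon length, the shortest had 97% called higher (717 of 739), the next 60%, the one after 10.4% and the longest 3.52%. The mitochondrial ribosomal genes are short, with a median exon length of 1526 bases and a median coding length of 445.5 bases, against 5663 and 1572 bases over all tested genes. Their median log2 fold change was 0.35. The 22 members under 3000 exon bases all lie in the shortest class, with a median of 0.36 against 0.33 for that class. The 10 longer members lie in the middle classes and all rose, with a median of 0.32. The medians of those classes were 0.22 and -0.29. The boundary of 3000 bases was set after the values were seen. The part of gene length in the rise of the mitochondrial ribosomal genes was not tested.

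**Figure D1:**
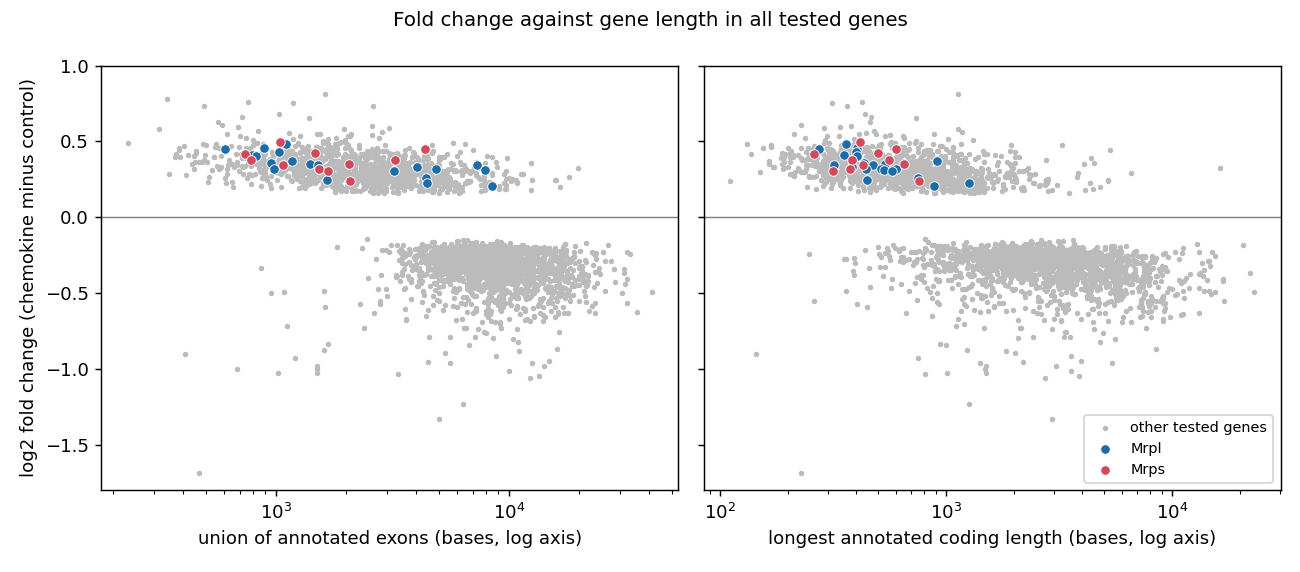
Log2 fold change (chemokine minus control, on log2(RPKM + 1)) against summed exon length (left, 2953 tested genes) and longest coding length (right, 2919 tested genes), both on log axes. Mrpl and Mrps genes lie in the upper part of the cloud, and a band around 0 is empty in both directions. The members span 607 to 8487 exon bases (left) and 261 to 1269 coding bases (right), against medians of 5663 and 1572 over all tested genes.

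The implied totals were 28603764 to 36863654 reads per library, and for the 30 members whose read numbers could be settled each library held between 365 and 3525 reads per gene. By a chi-square test of the reads at an unadjusted 0.05, 4 of the 32 members differed between the control libraries, against 18% of 1176 genes with exact reads. Between the chemokine libraries 11 members differed, against 45.7% of those genes. The 32 include Mrps34 and Mrpl23, whose reads could not be settled, and larger read numbers would raise their chi-square. Mrpl23 is among the 11, at a chi-square of 4.19. In 26 of 32 members chemokine 2 was above chemokine 1, whereas control 2 was above control 1 in 16. Tested genes that rose also had the higher median log2 deviation from the control mean in chemokine 2, at 0.34 against 0.28. Of 10 fibroblast markers 5 are in the table (Col1a1, Col1a2, Col3a1, Dcn and Vim), with a summed 1502 and 1483 RPKM in control and 1699.8 and 1722 RPKM in chemokine libraries. The listed endothelial markers, 2 of 6 (Sox18 and Pecam1), summed to 3.26 and 3.18 against 5.43 and 6.16 RPKM, with both higher. The listed epithelial markers, 2 of 8 (Krt18 and Sftpb), summed to 8.47 and 8.31 against 10.1 and 10.5 RPKM. They went opposite ways, with Krt18 higher (0.42 ± 0.05) and Sftpb, too low to be tested, at 1.18 and 1.24 against 0.391 and 0.331 RPKM. Leukocyte markers, 2 of 8 (Ear2 and Itgam), summed to 15.7 and 15.1 against 14.6 and 14.7 RPKM, and here too Ear2 rose (0.66 ± 0.07) while Itgam fell (-0.46 ± 0.06). Of 5 smooth muscle and pericyte markers 2 are in the table (Cnn1 and Myh11), at a summed 138 and 142 against 157 and 151 RPKM, of which Cnn1 rose (0.19 ± 0.05) and Myh11 fell (-0.34 ± 0.07). The part of these cells in the ribosomal values was not tested.

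**Figure D2:**
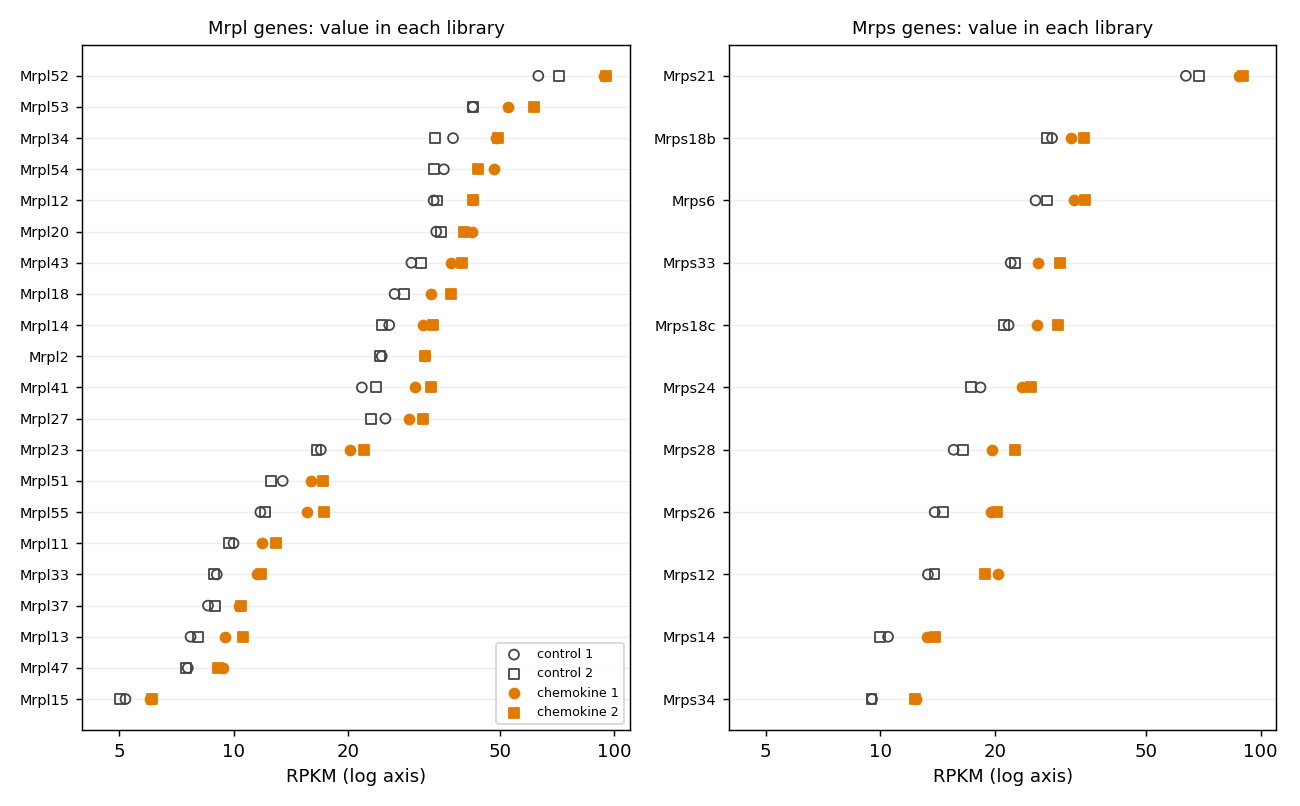
RPKM (log axis) of each of the 21 Mrpl genes (left) and 11 Mrps genes (right) in each library, with open symbols for control, filled symbols for chemokine, circles for replicate 1 and squares for replicate 2. In every gene both filled symbols lie to the right of both open ones, and the levels run from about 5 RPKM for Mrpl15 to 95.0 RPKM for Mrpl52.

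Nuclear genes for mitochondrial proteins are known to be bound by GABPA, an ETS family factor, and by NRF1. The promoters printed here belong to members picked because they hold a match to either motif. RefSeq promoter windows on GRCm38.p6, 250 bases before to 50 after the start, were available for 27 of the 32 members by symbol. Each line gives the 110 bases before the RefSeq start, 5′ to 3′ on the strand of the gene, with complete matches of CCGGAAG (GABPA) or of the NRF1 motif (GCGCA, any base, GCGC) on either strand in capitals.
Mrpl52 (chr14:54426799-54426908, plus strand): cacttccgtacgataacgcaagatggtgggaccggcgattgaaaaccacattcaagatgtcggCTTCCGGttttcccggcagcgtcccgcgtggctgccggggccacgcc
Mrpl53 (chr6:83108998-83109107, plus strand): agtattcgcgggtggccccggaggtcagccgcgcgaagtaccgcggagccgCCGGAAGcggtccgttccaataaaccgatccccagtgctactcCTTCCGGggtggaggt
Mrpl43 (chr19:45006443-45006552, minus strand): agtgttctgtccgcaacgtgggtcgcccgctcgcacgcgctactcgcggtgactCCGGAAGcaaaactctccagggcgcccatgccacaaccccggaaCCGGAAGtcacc
Mrpl27 (chr11:94653681-94653790, plus strand): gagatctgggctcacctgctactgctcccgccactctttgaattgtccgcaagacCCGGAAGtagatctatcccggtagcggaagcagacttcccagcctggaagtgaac
Mrpl12 (chr11:120484527-120484636, plus strand): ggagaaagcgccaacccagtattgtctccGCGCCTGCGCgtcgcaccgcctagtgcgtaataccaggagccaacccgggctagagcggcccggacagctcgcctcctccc
Mrps26 (chr2:130563647-130563756, plus strand): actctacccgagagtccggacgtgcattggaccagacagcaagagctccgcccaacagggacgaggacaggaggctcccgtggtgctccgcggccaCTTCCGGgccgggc
Mrps21 (chr3:95871515-95871624, minus strand): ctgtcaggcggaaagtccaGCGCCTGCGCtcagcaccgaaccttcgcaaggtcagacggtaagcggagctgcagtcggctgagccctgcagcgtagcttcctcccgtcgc

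The GABPA letters lay in the whole window of 14 of the 27 members (51.9%), 8 of 18 Mrpl and 6 of 9 Mrps genes. The same letters were found in 21% of 2195 other listed genes with a window and in 12.9% of 17492 protein-coding genes. In Mrpl43 and Mrpl53 they occur at a pair of places upstream, beginning 56 and 12 bases before the start in Mrpl43 and 59 and 16 bases before it in Mrpl53. NRF1 letters were found in 4 members (14.8%), namely Mrpl12, Mrpl14, Mrps21 and Mrps26, against 12.7% of the other listed genes and 7.17% of protein-coding genes. AAGATGG, the core of YY1 sites, was in 4 members (14.8%, against 9.25% and 7.18%), and TATAAA, the TATA box, in 1 (3.7%, against 9.02% and 14.8%). CCGGAAG and AAGATGG can share the letters AAG where they meet. Letters of GABPA or NRF1 were in 16 of the 27 members (59.3%), against 30.8% of the other listed genes. CCGGAAG is a core of the ETS family, so a match does not single out GABPA within it. A match is a string in a window and was not linked to binding in these cells.

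**Figure D3:**
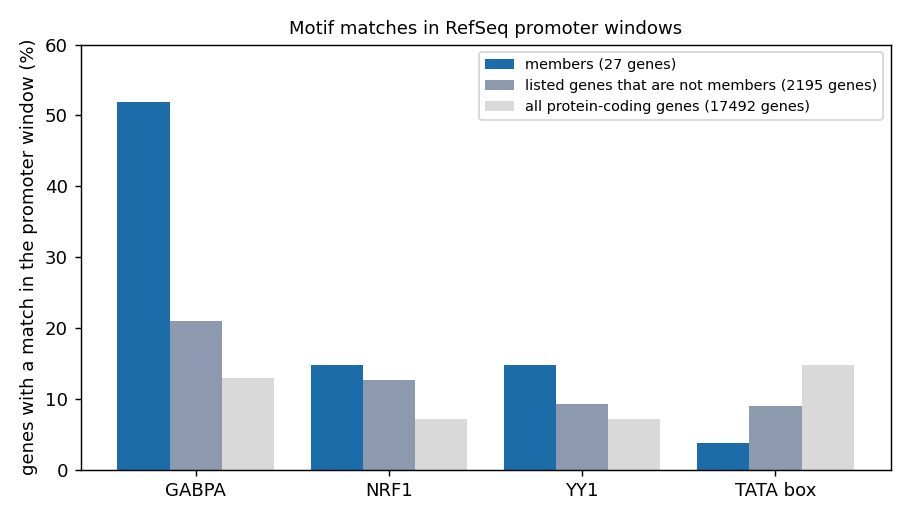
Share of genes (%) with at least 1 match of each motif, on either strand, in the RefSeq promoter window, for 27 members, 2195 other listed genes and 17492 protein-coding genes. GABPA letters reach 51.9% in the members, and the other 3 motifs stay under 15% in all 3 sets.

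By RPKM, the large subunit held the most abundant and the least abundant transcript of the set. Mrpl52 (ENSMUSG00000010406, chr14:54426909-54429756 on GRCm38, plus strand), a protein found only in mitochondrial ribosomes, measured 63.2 and 71.7 RPKM in the control libraries and 93.9 and 95.0 RPKM in the chemokine libraries. Its promoter stretch is the first of those printed. It had the largest rise of the large subunit, at 0.48 ± 0.06 on the log2 scale (limma's estimate ± SE, adjusted p = 0.00028), and the controls differed more from each other than the chemokine libraries did. Mrpl15 (ENSMUSG00000033845, chr1:4773206-4785739, minus strand), counterpart of bacterial L15, was lowest at 5.19 and 5.02 RPKM in control and 6.01 and 6.10 RPKM in chemokine libraries. That place depends on the exon length that divides the reads, since Mrpl15 held 1403 to 1752 reads per library against 365 to 571 for Mrpl55. Its log2 fold change on log2(RPKM + 1), 0.21 ± 0.05 (limma adjusted p = 0.0035), was also the smallest. By the authors' folds Mrps18b was lowest at 1.189, next to Mrpl15 at 1.190. The call of Mrpl15 was lost without control 2, where its log2 fold change stood at 0.19. Such a fit leaves 1 library in a group and assumes that it varies like the other group.

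Among the mitochondria-specific large subunit proteins, Mrpl41 followed Mrpl52. It read 21.7 and 23.7 RPKM in control and 29.98 and 33.0 RPKM in chemokine libraries, a log2 fold change of 0.45 ± 0.06 (adjusted p = 0.000357 by limma). Mrpl53 measured 42.5 and 42.6 RPKM in control and 52.8 and 61.6 RPKM in chemokine libraries (0.41 ± 0.07). The controls of Mrpl53 nearly coincide, and its chemokine libraries are the more spread pair. Mrpl53 shares 695 exon bases with the same-strand gene Gm42688, so reads of the pair are uncertain. Mrpl54 rose by 0.40 ± 0.06 and was 1 of the few against the usual order, with chemokine 1 (48.5 RPKM) above chemokine 2 (44.0 RPKM) over controls of 35.7 and 33.7 RPKM. Mrpl43 (0.34 ± 0.05) and Mrpl51 (0.33 ± 0.06) rose less. Mrpl37 changed least of this class, with a control mean of 8.75 ± 0.267 RPKM (SD, n = 2) and a chemokine mean of 10.4 ± 0.104 RPKM (SD, n = 2), or 0.23 ± 0.05 on the log2 scale. The 7 mitochondria-specific large subunit genes had a median log2 fold change of 0.40, and the 14 with a bacterial counterpart one of 0.32. Those medians describe the sets and were not tested against each other, and the former set has the shorter genes, at a median of 1109 against 1598 exon bases.

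Mrpl2, whose bacterial counterpart L2 lies beside the peptidyl transferase centre, had 24.5 and 24.2 RPKM in control and 31.8 and 31.9 RPKM in chemokine libraries. Replicates of Mrpl2 agree closely in both groups, and its log2 fold change was 0.37 ± 0.05 (SE, limma adjusted p = 0.000251). Mrpl27, whose bacterial counterpart reaches towards the same centre, rose by 0.32 ± 0.06. Mrpl11 and Mrpl12, counterparts of the bacterial proteins of the stalk that recruits translation factors, rose by 0.30 ± 0.06 and 0.32 ± 0.05. Mrpl12 was the more abundant of the pair, at 33.5 and 34.3 RPKM in control and 42.7 and 42.5 RPKM in chemokine libraries, while Mrpl11 ran from 9.99 and 9.71 RPKM to 11.9 and 12.9 RPKM. Mrpl23, whose bacterial counterpart sits at the exit of the peptide tunnel, rose by 0.32 ± 0.06.

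The other large subunit genes with bacterial counterparts spread from Mrpl34 down to Mrpl20. Mrpl34 measured 37.7 and 33.9 RPKM in control and 48.8 and 49.4 RPKM in chemokine libraries (0.45 ± 0.06, limma adjusted p = 0.000291). Here control 1 was the higher control, in contrast to Mrpl52 and Mrpl41. Apart from Mrpl55 and Mrpl47 the rest carry the number of their bacterial counterpart. Mrpl55, counterpart of bacterial L31, went from 11.8 and 12.1 RPKM to 15.6 and 17.3 RPKM (0.43 ± 0.06). Mrpl14 rose by 0.36 ± 0.05, Mrpl18 by 0.35 ± 0.07, Mrpl33 by 0.35 ± 0.05, Mrpl13 by 0.31 ± 0.06 and Mrpl47, counterpart of bacterial L29, by 0.26 ± 0.05. Mrpl20 was among the more abundant, at 34.1 and 35.1 RPKM in control and 42.2 and 40.3 RPKM in chemokine libraries, yet had one of the smaller rises (0.25 ± 0.05). Spearman's rho of log2 fold change with mean RPKM was 0.63 over the 21 Mrpl genes, -0.46 over the 11 Mrps genes and 0.53 over 2953 tested genes. These values describe genes that share the same libraries, and their difference was not tested. The added 1 RPKM shrinks the changes of low genes, and RPKM is itself divided by gene length, with which the fold change falls. Abundance and length are therefore not separated in these values.

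In the small subunit Mrps12 led (ENSMUSG00000045948, chr7:28739641-28741820, minus strand). It is the counterpart of bacterial S12, a protein of the decoding centre where codon and anticodon are checked. Its values were 13.3 and 13.9 RPKM in control and 20.4 and 18.8 RPKM in chemokine libraries. Both chemokine libraries lie well above both controls, and the log2 fold change of 0.50 ± 0.06 (SE, limma adjusted p = 0.000213) was the largest of all 32 genes. Mrps26 (ENSMUSG00000037740, chr2:130563742-130568695, plus strand), a mitochondria-specific protein, was next at 13.9 and 14.6 RPKM against 19.5 and 20.2 RPKM (0.45 ± 0.05, adjusted p = 0.000212). Its pairs of replicates are equally tight in both groups. Mrps24, counterpart of bacterial S3, went from 18.4 and 17.4 RPKM to 23.6 and 24.9 RPKM (0.42 ± 0.05) and shares 226 exon bases with Urgcp on the same strand.

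Mrps21, counterpart of bacterial S21, was the most abundant small subunit transcript. It measured 63.6 and 69.0 RPKM in control and 87.6 and 90.1 RPKM in chemokine libraries, a log2 fold change of 0.42 ± 0.05. Mrps34, a mitochondria-specific protein, was the least abundant, at 9.52 and 9.48 RPKM against 12.4 and 12.3 RPKM (0.35 ± 0.05). Its replicates are almost identical, but its annotated exons share 1309 bases with Mapk8ip3 on the opposite strand and 763 bases with Nme3 on the same strand, so its reads are uncertain. Mrps14, counterpart of bacterial S14, went from 10.5 and 9.96 RPKM to 13.3 and 13.9 RPKM (0.38 ± 0.05). Mrps28, counterpart of bacterial S1, rose by 0.38 ± 0.07. The partners Mrps6 and Mrps18c, whose bacterial counterparts S6 and S18 bind each other on the platform of the small subunit, rose by 0.32 ± 0.06 and 0.35 ± 0.06. Mrps18b, a further relative of S18, rose from 28.3 and 27.5 RPKM to 31.7 and 34.3 RPKM, the smallest rise of the subunit at 0.24 ± 0.05, and Mrps33, also mitochondria-specific, came next at 22.0 and 22.6 RPKM against 26.1 and 29.7 RPKM (0.31 ± 0.07). Over both subunits 16 members share annotated exon bases with another gene and had a median log2 fold change of 0.34, against 0.38 for the 16 that share none. Mrpl47 is among the former, and its partner on the opposite strand, Ndufb5, is itself listed, and the authors' deposited table gives it 1.26-fold.

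The subunits overlapped in the size of their rise. The median log2 fold change was 0.34 for Mrpl genes (range 0.21 to 0.48) and 0.38 for Mrps genes (range 0.24 to 0.50), a difference of -0.034. Measured against the control mean, the median member stood at 0.30 (Mrpl) and 0.35 (Mrps) in chemokine 1 and at 0.38 and 0.44 in chemokine 2. Chemokine 2 therefore read higher than chemokine 1 in both subunits, by more than the subunits differed. This order is not particular to the members. The median tested gene that rose stood at 0.28 in chemokine 1 and 0.34 in chemokine 2, and the shortest length class at 0.30 and 0.37. Over all tested genes the medians were -0.20 and -0.24. The difference between subunits was -0.048 in chemokine 1 and -0.058 in chemokine 2, and 0.024 and -0.024 in the controls, which mirror each other because they are measured from their own mean. With 2 against 2 libraries an exact permutation test cannot fall below p = 0.33, and no test was made on these medians. The median level in a control library was 24.5 and 23.7 RPKM for Mrpl genes and 18.4 and 17.4 RPKM for Mrps genes, with overlapping ranges.

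Few rises cleared a demand for size. When limma had to show a fold of at least 1.2 (treat), 4 members passed, Mrps12 (adjusted p = 0.0207), Mrps26 (0.029), Mrpl52 (0.0335) and Mrpl34 (0.0475). Over all tested genes 3.28% passed upward (97 genes), of which 84 belong to the shortest length class. Both subunits are represented, with 2 of 21 Mrpl and 2 of 11 Mrps genes.

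Within the large subunit the rise was graded by gene length. Across the 21 Mrpl genes the log2 fold change fell with exon length (Spearman's rho of -0.76), across the 11 Mrps genes the rho was -0.19, and across 2953 tested genes with an annotated length it was -0.72. These are descriptions across genes that share the same 4 libraries. A smooth trend of exon length and GC content was then subtracted in each library over all tested genes. After this, 10 members still passed upward (8 Mrpl and 2 Mrps) and none passed downward. Upward passes made up 20.9% of all tested genes and 43.9% of the tested genes that rose. The 10 were the 10 members with at least 3000 exon bases, a boundary set after the values were seen, and none of the 22 shorter members passed. Of all tested genes that rose and have at least 3000 exon bases, 92.6% also passed after the subtraction, against 19.7% of the shorter ones that rose.

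Mrpl33 shows how much hangs on the length that is used. Its annotated exons cover 7326 bases while its coding sequence has 321, and it went from 0.35 ± 0.05 as deposited to 0.60 ± 0.04 with the exon length and GC trend removed (limma adjusted p = 0.000538), and to 0.015 ± 0.04 with the trend of coding length removed (adjusted p = 0.781). Mrpl13 (7936 exon and 534 coding bases) and Mrpl15 (8487 and 885) behaved in the same way, at 0.56 ± 0.06 and 0.47 ± 0.04 under the former and 0.055 ± 0.05 and 0.094 ± 0.04 under the latter. With coding length, an alternative chosen after seeing the data, 5 members passed upward, against 20.1% of all tested genes and 42.9% of the tested genes that rose. They were Mrpl2 (0.27 ± 0.03, adjusted p = 0.00171), Mrpl37 (0.27 ± 0.04, 0.00294), Mrps26 (0.22 ± 0.04, 0.00635), Mrps24 (0.15 ± 0.04, 0.0296) and Mrps34 (0.14 ± 0.04, 0.0332). Mrps12 narrowly missed (0.20 ± 0.06, 0.0515). Mrps26 and Mrpl37 were the members past the threshold under both subtractions, and the median member stood at 0.085 under the former and 0.087 under the latter.

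**Figure D4:**
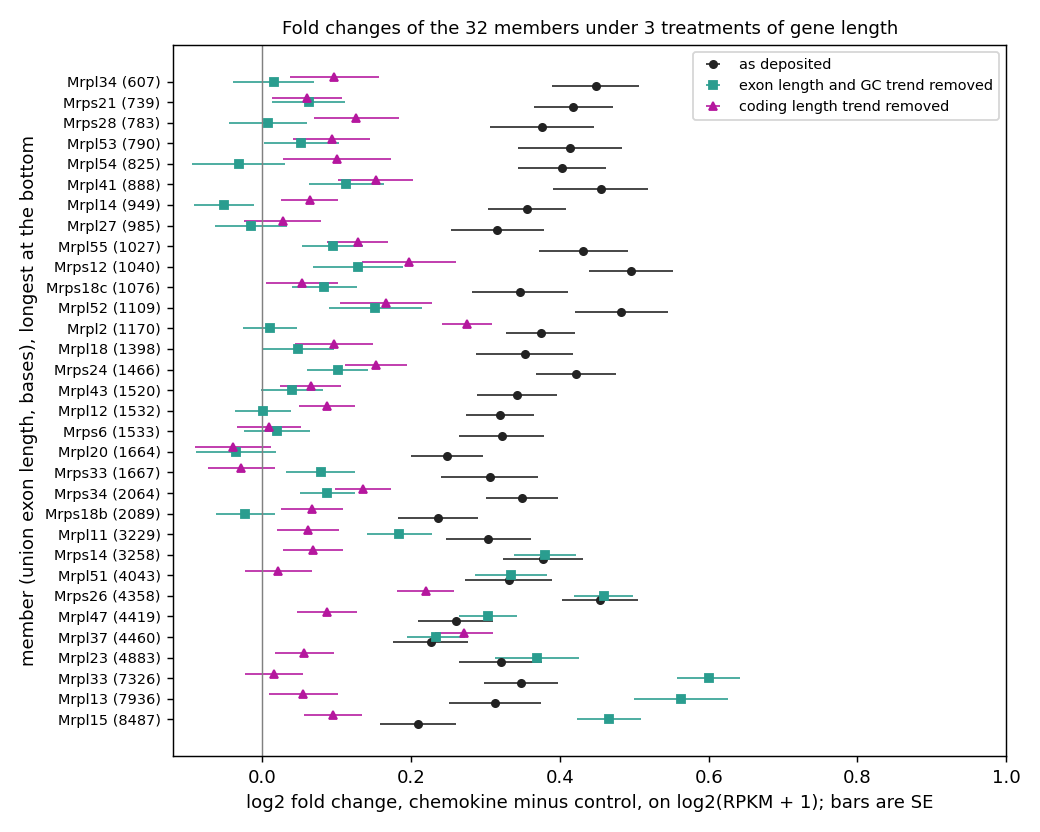
Log2 fold change with SE of each of the 32 members as deposited (circles), with the trend of exon length and GC removed (squares) and with the trend of coding length removed (triangles), ordered by summed exon length. The circles span 0.21 to 0.50, the squares lie between -0.052 and 0.15 for genes under 3000 bases and between 0.18 and 0.60 for longer ones, and the triangles lie between -0.04 and 0.27.

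The transcripts of the GABP subunits in the table were lower. Gabpa, the DNA-binding subunit, is named for its motif and was chosen after its values were seen. It measured 14.2 and 14.5 RPKM in control and 12.5 and 11.6 RPKM in chemokine libraries, a log2 fold change of -0.24 ± 0.05 (SE, limma adjusted p = 0.00261). Gabpb2, a partner subunit, fell as well (-0.34 ± 0.06), and so did Pprc1, a coactivator of the PGC-1 family (-0.26 ± 0.05). All 3 are long genes, with 5687, 15465 and 6284 exon bases, and none passed with the exon length and GC trend removed, where Gabpa stood at -0.087 ± 0.04 (adjusted p = 0.153) and Gabpb2 turned to 0.035 ± 0.04. With the coding length trend removed both GABP subunits still passed downward, Gabpa at -0.16 ± 0.04 (adjusted p = 0.0266) and Gabpb2 at -0.30 ± 0.05 (0.00606), and Pprc1 turned to 0.10 ± 0.04 (0.0621). Of the 22 import and biogenesis genes on this list 8 were tested, 5 rose and these 3 fell, with a median log2 fold change of 0.22. The largest rises were in Clpp, a protease of the mitochondrial matrix (0.37 ± 0.05), and Hspe1, the matrix co-chaperonin (0.31 ± 0.06).

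Ribosomal proteins with other names, and the factors that work with the ribosome, were sparsely listed. Of 7 genes searched, which included the ribosome-binding membrane protein Oxa1l, 4 were tested and all rose. Aurkaip1, a small subunit protein, went from 63.2 and 55.8 RPKM to 76.8 and 76.7 RPKM (0.37 ± 0.06), and Chchd1, also of the small subunit, from 36.2 and 35.2 RPKM to 43.4 and 49.1 RPKM (0.36 ± 0.06). Ict1, a peptidyl-tRNA hydrolase built into the large subunit, rose by 0.26 ± 0.05, and Dap3, a GTP-binding protein of the small subunit, by 0.23 ± 0.05. Their median log2 fold change of 0.31 lies within the range of the named members. Among 26 assembly and rRNA modification genes only Mpv17l2 is in the table (0.34 ± 0.05), and among 18 translation factors only Tsfm, which recharges the elongation factor Tu (0.35 ± 0.08), and Slirp, which stabilises mitochondrial messenger RNA (0.28 ± 0.07). By symbol, none of 22 searched for mitochondrial aminoacyl-tRNA formation is in the table. Nor is any of 18 symbols for mitochondrial DNA transcription, replication and RNA processing. Genes held under another name would be missed.

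Of the messenger RNAs that this ribosome translates, 5 were tested, 4 rose and 1 fell, all of them named although the naming rule takes 4. Among the 13 genes of the list, whose reads are uncertain where the nuclear genome holds copies of mitochondrial DNA, mt-Co2 rose most, from 6167 and 5776 RPKM to 7184 and 8231 RPKM, a log2 fold change of 0.37 ± 0.07 (SE, limma adjusted p = 0.00125). Chemokine 2 is again the higher library. mt-Nd3 (0.28 ± 0.06), mt-Co3 (0.22 ± 0.06) and mt-Nd1 (0.19 ± 0.05) rose as well. mt-Nd5 fell, from 1081 and 1066 RPKM to 967 and 906 RPKM (-0.20 ± 0.05, adjusted p = 0.00435), and is the longest of the 5 at 1824 bases against 348 to 957 for the others. The call of mt-Nd5 was lost without control 1 (adjusted p = 0.0519) and when libraries were centred on their medians (0.116), and those of mt-Co3 (0.114) and mt-Nd1 (0.138) without control 2. With the coding length trend removed mt-Nd5 stood at -0.0091 (adjusted p = 0.863), and with the exon length and GC trend removed it still passed, at -0.25 ± 0.05 (0.00939).

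The 79 listed cytosolic ribosomal protein genes all rose, with a median log2 fold change of 0.35, and so did the 64 listed nuclear genes for respiratory chain and ATP synthase subunits, also with a median of 0.35. Both are short too, at medians of 453 and 397.5 coding bases. With the coding length trend removed, 26 of the 79 and 8 of the 64 passed upward and none downward. With the exon length and GC trend removed, 31 and 19 passed upward and 1 of each family downward. No difference between the families was tested.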

How the data were processed

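RNA sequencing of 4 libraries was deposited as 1 table. Per the submitters' processing notes, TopHat2 2.0.7, DESeq2 and GRCm38/mm10 were used, with no role or order. The sources used here do not name the counter, its annotation, any strand setting or the rule that chose the genes. The authors gave values per library in RPKM, a unit worked out from the values: in 1176 genes, 13 of them members, each value equals whole reads over the GENCODE M21 exon length and a fixed library total, within a relative 1e-11. For other members reads are the smallest whole numbers that give those values. In 30 of 32 members the next solution needs a length above 1.1 times the annotated one, and in Mrpl34 the smallest already needs 645 bases against 607 annotated. The deposited fold is a linear ratio the authors computed.

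Groups were compared with limma 3.58.1 (R 4.3.3, moderated test with a mean-variance trend, two-sided) on log2(RPKM + 1) over the 2956 genes averaging 1 RPKM or more, with Benjamini-Hochberg adjustment over all of them and a threshold of 0.05. The added 1 RPKM understates changes of low genes. The fit was tried on simulated data in which most genes were unchanged. That trial does not cover a table like this one, where the groups are apart in every gene. Trends were loess fits (span 0.5) of each library's deviation from the gene mean. GC content is that of the longest transcript, and sequences are RefSeq's. Members named with library values or group means were, in each subunit, the 5 largest and 2 smallest changes, the highest and lowest levels, and some others to show a role. Of each other list up to 4 genes by size of change were named, with additions stated. The members and lists were chosen with earlier results of these data known, and the split by bacterial counterpart from textbook knowledge after values were seen. Reads of overlapping genes cannot be told apart.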

Additional observations from a re-analysis of the deposited data

How the results depend on the processing

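As reported, 32 members were higher, and 16 genes of the other fixed lists were higher and 4 lower. The count of members was unchanged at 32 with a pseudocount of 0.1 RPKM, no filter or libraries centred on their medians. It was also unchanged without limma's variance trend and with the replicate block. Rises over all tested genes were unchanged in each of these settings too, at 1264, so this does not set the members apart. With a filter at a mean of 10 RPKM the count was 28, of 28 members tested. When 1 library was left out, all 32 members stayed positive, at log2 fold changes of 0.18 to 0.57. The count of calls dropped to 4 with a required fold of 1.2 (0 and 0 in the other lists). It was 10 with the exon length and GC trend removed (8 and 1) and 5 with the coding length trend removed (4 and 2). The 2 removals gave medians of 0.094 and 0.087 for Mrpl and 0.083 and 0.068 for Mrps genes, and turned the difference between subunits to 0.011 and 0.019. That difference was -0.043 with the pseudocount of 0.1 and -0.023 with the filter at 10 RPKM. Centring raised the medians to 0.45 and 0.48 and shifted that of all tested genes by 0.10. Leaving out 1 library gave medians of 0.30 to 0.38 for Mrpl and 0.35 to 0.44 for Mrps genes, and differences of -0.058 to -0.0011. The cause of these shifts was not tested.

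With the exon length and GC trend removed, Mrpl54 (-0.032), Mrpl14 (-0.052), Mrpl27 (-0.015), Mrpl20 (-0.035), Mrps18b (-0.023), Mpv17l2 (-0.030) and Gabpb2 (0.035) turned without passing. With coding length, Mrps33 (-0.028), Mrpl20 (-0.040), Slirp (-0.046), mt-Nd3 (-0.040), Hspe1 (-0.029) and Pprc1 (0.103) did. All members passed with the replicate block, 32 of 32, while all tested genes kept their 1264 rises and 1692 falls. The replicate numbers share only a number: deviations of same-numbered libraries correlated at -0.16 over 2956 genes, and with crossed numbers, an alternative chosen after seeing the data, 32 members passed as well. Over all tested genes 97 rises and 310 falls remained with the required fold, 1098 and 691 with the filter at 10 RPKM, 616 and 647 with the exon length and GC trend removed, and 588 and 572 with coding length, against 1264 and 1692 as reported.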
